A study of Mus musculus with 4 samples.

Results

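The genes described here carry the signals that place and start the ureteric bud, the outgrowth of the nephric duct that founds the collecting system of the kidney. They were the growth factor Gdnf, its receptor tyrosine kinase Ret, the co-receptors Gfra1, Gfra2 and Gfra3, the guidance ligand Slit2 with the receptors Robo1 and Robo2, and the ETS transcription factors Etv4 and Etv5. All probes annotated to 1 of these 10 genes were taken, whatever their values, which gave 11 probes of the 22702 on the array, where 15096 genes had a probe with 1 symbol. Etv5 had 2 probes and every other gene had 1. The arrays compared dissected metanephric mesenchyme (MM), the mesenchyme of the future permanent kidney, with intermediate mesoderm (IM), the tissue beside the somites that gives rise to the urogenital organs. Both tissues were taken from mouse embryos of both sexes at 10.5 days post coitum (dpc), as primary tissue, and the RNA was amplified before labelling. The sources used here do not give the strain, how many embryos were pooled or how many RNA extracts were made. Each of the 4 arrays carried both tissues, with no common reference. MM was in channel 1 on arrays 1 and 2 and in channel 2 on arrays 3 and 4, where the labels swap mesenchyme and mesoderm between the names and were taken to mean the same tissues.

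In the embryo, Gdnf is secreted by the mesenchyme and binds Gfra1 on cells of the nephric duct, and the complex activates Ret. Ret signalling raises Etv4 and Etv5 in the duct tip, and Sprouty proteins damp it. Slit2, made by the duct and other tissues, acts through Robo2 in the mesenchyme to keep the Gdnf domain at its posterior place, so that a single bud forms. Gfra2 and Gfra3 are the preferred co-receptors of the related ligands neurturin and artemin, which act in the nervous system.

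The measured quantity was the log2 of the ratio of MM to IM on each array, so that 1 is a 2-fold difference and positive values are higher in MM. That direction is likely from the order of the tissue names and from the authors' reversal of arrays 3 and 4, but the labels do not state the dye of each channel. A value of -6.64 is the log2 of a ratio of 0.01, the lowest that the table holds, and is called the floor: it is not a measured fold. The 4 arrays held between 15812 and 21599 values, of which 16, 8, 1672 and 1805 lay at the floor on arrays 1 to 4. Probes with a value on every array, 14184 in all, were fitted with limma, once with a term for the channel orientation and once without it. "Called" means an adjusted p under 0.05. The fit without the term counts the difference between orientations as part of the error and takes the 4 arrays as independent. All 3968 probes called in that fit were also called with the term. With each orientation averaged to 1 value, 0 of the 14184 probes were called. Arrays of 1 orientation resembled each other (Pearson's r 0.836 and 0.912, computed across probes with 4 values above the floor; genes are not independent replicates), and arrays of opposite orientation did so less (0.113 to 0.274).

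Of the 11 probes, 8 had a value on all 4 arrays, for 7 of the 10 genes, and 7 of these 8 stood above the floor throughout. Ret, Gfra2 and Robo1 lacked at least 1 value and were not tested. With the orientation term 6 of the 8 tested probes were called, 3 higher and 3 lower in MM, against 61.9% of all tested probes called, 23.8% higher and 38.1% lower. In both fits 3 of the 8 were called, Gdnf and Robo2 higher and Gfra3 lower, against 28% of all tested probes, 13.6% higher and 14.4% lower. The share of members called is thus read against a background in which calls are common. The median log2 ratio of the 7 probes above the floor was 0.66, beside -0.05 for all tested probes above it. Since the tissues were measured in bulk, a lower ratio from fewer cells of a type and one from less RNA per cell cannot be told apart.

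**Figure D1:**
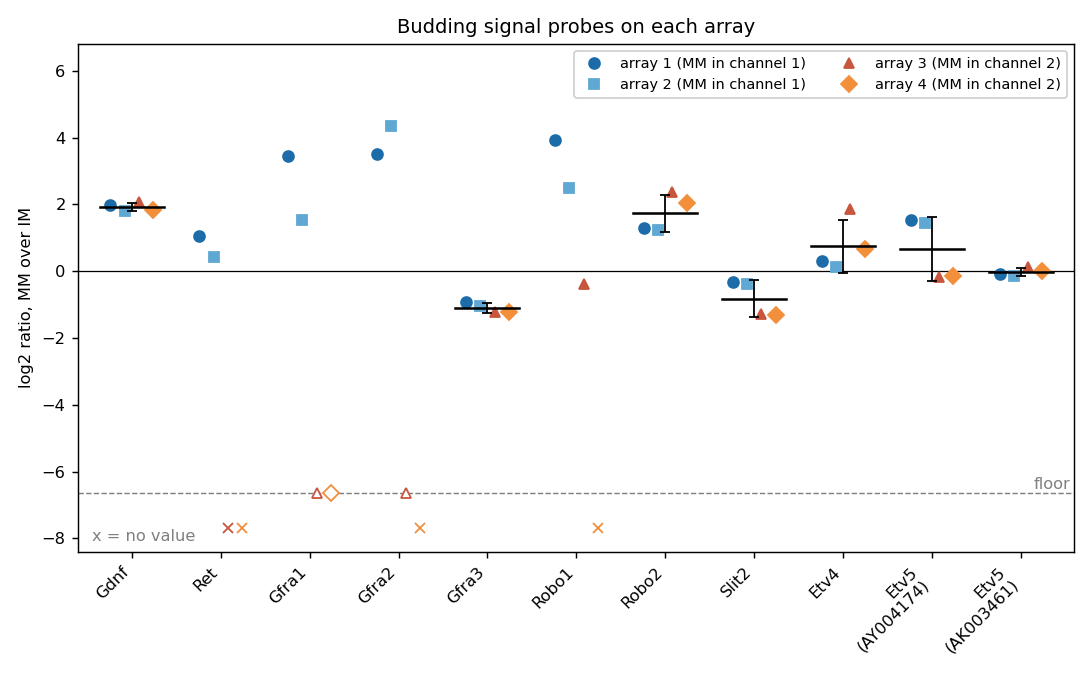
The log2 ratio of MM over IM (vertical axis) for each of the 11 probes on arrays 1 to 4; open symbols lie at the floor, crosses mark arrays with no value, and bars give mean and SD for the probes with 4 values above the floor. Gdnf lies between 1.81 and 2.07 on the 4 arrays, Gfra3 between -1.22 and -0.92, and Gfra1 and Gfra2 are above 1.5 on arrays 1 and 2 and otherwise at the floor or without a value.

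Gdnf, the ligand that draws out the bud, was higher in MM by nearly the same amount on every array. Its log2 ratio was 1.98 on array 1, 1.81 on array 2, 2.07 on array 3 and 1.82 on array 4. The orientations overlapped, and all 4 values were well above 0. The mean was 1.92 ± 0.13 (SD, n = 4), a 3.78-fold difference, with a limma adjusted p of 0.000762 with the orientation term and 0.00167 without it. The difference between orientations was -0.05 (adjusted p = 0.749). Of the 14184 tested probes, 149 had a mean at least as high, 1.05% with Gdnf itself counted. On all 4 arrays, 83 probes stayed at or above Gdnf's lowest value, and 25 of these, Gdnf included, had an SD no larger. Leaving out each array in turn gave means of 1.86 to 1.98, and Gdnf was called each time.

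Robo2, the Slit receptor of the mesenchyme, was the other member higher in MM in both fits. Its log2 ratio was 1.28 on array 1 and 1.24 on array 2, against 2.36 on array 3 and 2.04 on array 4. All 4 arrays put it higher in MM, and the orientations did not overlap. The mean was 1.73 ± 0.55 (SD, n = 4), 3.32-fold, with a limma adjusted p of 0.000949 with the orientation term and 0.0147 without it. The difference between orientations itself passed the threshold (-0.93, adjusted p = 0.0197), as it did for 44.6% of all tested probes. Within arrays 1 and 2 alone the mean was 1.26, and within arrays 3 and 4 alone it was 2.20.

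Slit2, the ligand of Robo2, ran the other way. Arrays 1 and 2 gave -0.31 and -0.38, arrays 3 and 4 gave -1.29 and -1.31, lower in MM on all 4 arrays but by unequal amounts. The mean was -0.82 ± 0.55 (SD, n = 4), 1.77-fold lower in MM. It was called with the orientation term (limma adjusted p = 0.000774) but not without it (adjusted p = 0.0825), and the difference between orientations was 0.96 (adjusted p = 0.00451). Of the 8 tested member probes 5 kept 1 sign on all 4 arrays, against 49.4% of all tested probes (21% higher and 28.4% lower), so the shared sign alone does not set Slit2 apart.

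Gdnf and Robo2 were called higher in MM in both fits, and Slit2 was called lower only with the orientation term. Their promoters are shown so that the start regions of the receptor and its ligand can be read beside that of the growth factor. Each is the 250 bases before the outermost start in RefSeq (GRCm38.p6), 5′ to 3′ on the gene's strand, with matches to the searched motifs in capitals. Of the 10 genes, 6 had an entry, with 10 starts in all.
Gdnf, chr15:7809798-7810047, plus strand: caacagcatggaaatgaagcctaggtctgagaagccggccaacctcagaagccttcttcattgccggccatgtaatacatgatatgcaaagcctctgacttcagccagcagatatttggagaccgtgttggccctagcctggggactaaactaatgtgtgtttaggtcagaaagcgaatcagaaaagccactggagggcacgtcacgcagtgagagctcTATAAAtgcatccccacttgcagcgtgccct
Robo2, chr16:75447294-75447543, minus strand: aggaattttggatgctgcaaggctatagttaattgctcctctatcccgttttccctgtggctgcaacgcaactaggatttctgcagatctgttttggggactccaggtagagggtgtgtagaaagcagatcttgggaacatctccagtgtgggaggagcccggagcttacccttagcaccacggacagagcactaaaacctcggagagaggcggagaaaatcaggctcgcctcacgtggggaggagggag
Slit2, chr5:47982905-47983154, plus strand: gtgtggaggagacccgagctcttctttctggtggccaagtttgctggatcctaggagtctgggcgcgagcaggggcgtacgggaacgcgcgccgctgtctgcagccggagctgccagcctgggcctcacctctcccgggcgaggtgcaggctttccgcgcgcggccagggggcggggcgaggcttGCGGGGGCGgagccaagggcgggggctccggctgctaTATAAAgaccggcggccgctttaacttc
The motifs searched on both strands were the TATA box (TATAAA), an ETS core (CCGGAA), a motif of the Six2 family (TCAGGTT) and a WT1/EGR site (GCGGGGGCG), none of which overlapped in these windows. The TATA box was found in the windows of Gdnf, at position -31 from the start, and of Slit2, at -28, and 12.4% of the 32851 windows of this length held it. Slit2 also had a WT1/EGR site at -65, held by 2.57% of windows, and the Robo2 window had no match. Among the other starts, that of Gfra1 held an ETS core at -156 (12% of windows) and the Six2 family motif at -66 (3.49%). A match describes the letters of a window, not binding.

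Gfra3, the co-receptor that prefers artemin, was lower in MM on every array. Its log2 ratios were -0.92, -1.04, -1.22 and -1.21 on arrays 1 to 4. The values lay close together, although the orientations did not overlap (difference 0.24, limma adjusted p = 0.0658). The mean was -1.10 ± 0.15 (SD, n = 4), 2.14-fold lower in MM, with a limma adjusted p of 0.000686 with the orientation term and 0.00363 without it. Only 7.51% of tested probes had a mean as low. Gfra3 is known from sensory and sympathetic neurons and their precursors, so the list of neural crest and enteric markers was read beside it. Of 12 such genes, 8 had a probe and 5 were tested, with 1 higher and 4 lower in MM, 1 of these 4 with values at the floor. All those tested were thus called (100%), beside 61.9% of all tested probes. The higher gene was Tfap2a (1.44 ± 1.15, limma adjusted p = 0.0357, and 0.119 without the orientation term). In both fits 0 were higher and 1 was lower, 20% of those tested beside 28% of all tested probes. The lower gene was Phox2a, a factor of autonomic neurons (-0.99 ± 0.49, n = 4, limma adjusted p = 0.00165, and 0.041 without the orientation term). Sox10, the defining factor of migrating crest, had values on arrays 3 and 4 alone, 1.07 and 0.44. The part of such cells in the Gfra3 ratio was not tested, and levels of the markers in each tissue are not in a table of ratios.

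The co-receptors Gfra1 and Gfra2 gave high ratios in 1 orientation and none in the other. Gfra1, the co-receptor for Gdnf in the duct and mesenchyme, had ratios of 3.43 on array 1 and 1.54 on array 2, and both arrays of the other orientation held it at the floor. Its call as lower in MM (limma adjusted p = 0.0181 with the orientation term, 0.582 without it) rests on the floor and is no measured fold. Gfra2, which prefers neurturin, read 3.52 and 4.35 on arrays 1 and 2, was at the floor on array 3 and had no value on array 4. Neither gene therefore has a direction that both orientations share.

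Ret, the receptor that the GDNF family ligands use, could not be tested. It read 1.04 and 0.42 on arrays 1 and 2, that is 2.06-fold and 1.34-fold towards MM, and had no value on arrays 3 and 4. Robo1, a Slit receptor of axons and mesoderm, read 3.93 and 2.50 on arrays 1 and 2, -0.38 on array 3 and gave no value on array 4. When probes with 3 or more values were fitted, Robo1 had a log2 ratio of 1.41 (SE 0.43, n = 3, limma adjusted p = 0.113) and Gfra2, with its floor value, one of -1.36 (adjusted p = 0.0522), and neither was called.

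The loss of values on arrays 3 and 4 was common over the whole table. Channel orientation coincides with the pair of arrays, so its effect and any other difference between the pairs cannot be told apart. Of 2440 probes above 1 on both arrays 1 and 2, 1749 (71.7%) were at the floor or without a value on array 3 or 4, against 38.5% of all 21461 probes with values on arrays 1 and 2. Of the members, 6 probes were above 1 on arrays 1 and 2, and 3 of these, Gfra1, Gfra2 and Robo1, were lost in that way. Of those 2440 probes, 691 were measured above the floor on both arrays 3 and 4. Of these 691, 443 (18.2% of the 2440) also averaged above 1 there, as Gdnf and Robo2 did. The Etv5 probe AY004174, measured on both as well, averaged -0.16 there.

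The ETS factors downstream of Ret did not share a direction. Etv4, the factor of the PEA3 group best known from the bud tip, gave 0.32, 0.11, 1.86 and 0.68 on arrays 1 to 4. It was positive on all 4 arrays, but the values ranged widely. The mean of 0.74 ± 0.78 (SD, n = 4) was not called (limma adjusted p = 0.069, and 0.205 without the orientation term). Without array 3 the log2 ratio was 0.44 and was called (adjusted p = 0.0456), and without array 4 it was 1.04 and was called (adjusted p = 0.0211), in fits where the remaining array of that orientation leaves no residual of its own.

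Etv5, its close relative, gave different answers by probe. The probe annotated to the record AY004174 gave 1.54, 1.43, -0.17 and -0.15 on arrays 1 to 4, so that its sign followed the channel orientation. Its mean of 0.66 ± 0.95 (SD, n = 4) was called with the orientation term (limma adjusted p = 0.00138) and not without it (adjusted p = 0.327). The orientations differed by 1.65 (adjusted p = 0.00217), more than the mean itself. The probe annotated to AK003461 stayed near 0, at -0.08, -0.13, 0.12 and 0.02 on arrays 1 to 4, and was not called (-0.02 ± 0.11, adjusted p = 0.64). No direction for Etv5 is shared by its probes and by both orientations.

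**Figure D2:**
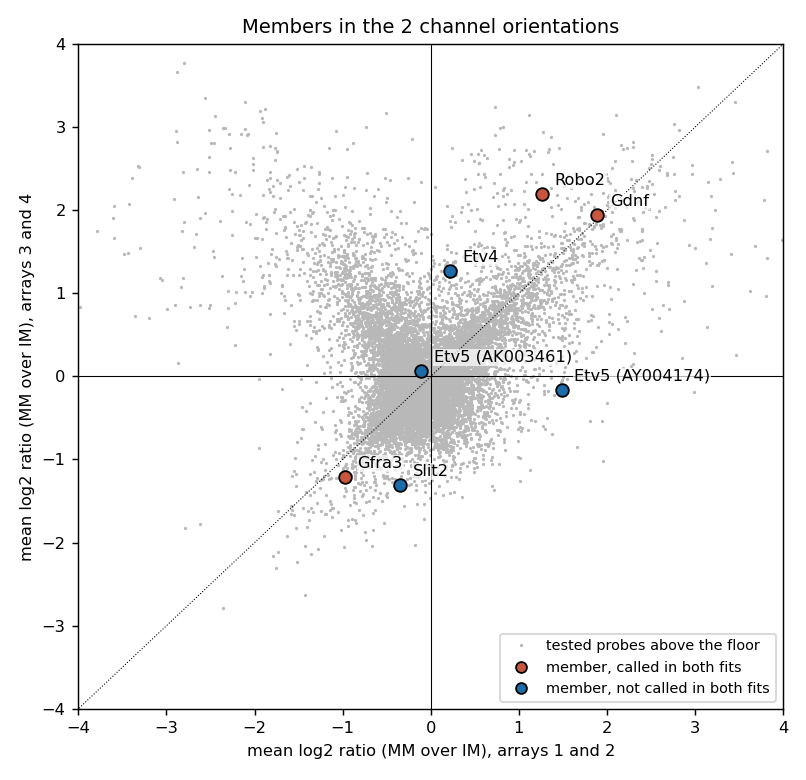
The mean log2 ratio on arrays 1 and 2 (horizontal axis) against that on arrays 3 and 4 (vertical axis) for the 13191 tested probes above the floor (grey; 27 lie outside the axes) and the 7 member probes among them; the dotted line marks equal values. Gdnf lies on that line at 1.89 and 1.94, Gfra3 and Slit2 are negative on both axes, and the Etv5 probe AY004174 lies at 1.49 and -0.16.

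Ordered by mean log2 ratio, the 7 probes above the floor ran from Gdnf through Robo2, Etv4, Etv5 (AY004174), Etv5 (AK003461) and Slit2 to Gfra3. Gdnf and Robo2 did not differ beyond their spread: Gdnf minus Robo2 was 0.19 ± 0.51 (SD over 4 arrays), and Gdnf was above on arrays 1 and 2 (0.69 and 0.56) and below on arrays 3 and 4 (-0.29 and -0.21). Robo2 exceeded Etv4 on all 4 arrays, by 0.99 ± 0.37. Etv4 and the Etv5 probe AY004174 changed places between orientations (0.08 ± 1.64), as did the 2 Etv5 probes (0.68 ± 1.05). Etv5 (AK003461) was above Slit2 on all 4 arrays, by 0.80 ± 0.66. Slit2 and Gfra3 did not differ beyond their spread (0.27 ± 0.41), and this pair too changed places with orientation, at 0.60, 0.66, -0.08 and -0.10 on arrays 1 to 4. These are differences between ratios and say nothing of which gene was more abundant.

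The probes most like each member were found by Euclidean distance over the 4 log2 ratios, among 10869 probes with 1 gene symbol and 4 values above the floor. Nearest to Gdnf were Cd83 (distance 0.21), Zfp462 (0.24) and Sypl (0.25). Nearest to Robo2 were Lin28a (0.32), Copb1 (0.33) and Esco2 (0.42), and to Slit2 Insl6 (0.15), S100a13 (0.15) and Meg3 (0.17). Gfra3 was nearest to Axl (0.12), Ifitm3 (0.13) and Myl9 (0.14), and Etv4 to 5730414M22Rik (0.21), Akap2 (0.29) and Tmem144 (0.36). The Etv5 probe AY004174 was nearest to Ppp1r16a (0.25), Zcchc9 (0.28) and the glypican Gpc1 (0.30). The flat Etv5 probe AK003461 was nearest to Immt (0.04), Ppp2r3c (0.05) and Cisd1 (0.05), with 640 probes within 0.25, against 2 for Gdnf, 12 for Gfra3, 8 for Slit2 and 0 for Robo2.

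Of the remaining GDNF family genes, Nrtn, Ncam1 and Gas1 had values above the floor on both arrays 3 and 4, Gfra4 on array 4 alone, and Artn and Pspn on neither. Of 13 genes in the list of ligands and receptors, members included, 11 had a probe and 6 were tested. Of the 6, 2 were higher and 3 lower in MM and 1 was not called. Of these 3, Gfra1 and Ncam1 had a probe with values at the floor. In both fits 2 were higher and 1 lower. Besides Gdnf, the higher gene was Gas1, a membrane protein related to the Gfra co-receptors, at 0.55, 0.48, 0.37 and 0.39 on arrays 1 to 4 (0.45 ± 0.08, limma adjusted p = 0.0021, and 0.01 without the orientation term). Neurturin, Nrtn, gave 0.52, 0.48, -0.42 and -0.49 on arrays 1 to 4 and was not called (adjusted p = 0.546). Artemin, Artn, read 2.75 and 0.70, then the floor, with no value on array 4. Persephin, Pspn, read 0.77 and -0.45 with the floor on array 4, and its co-receptor Gfra4 read 0.50 and 0.19 with -0.64 on array 4. Ncam1, an adhesion molecule that can bind Gdnf with Gfra1, had 3 probes. They averaged -0.33 ± 1.21, -0.24 ± 0.16 and a mean that holds the floor on arrays 3 and 4, all called lower with the orientation term and none without it. The first gave 0.87 and 0.55 on arrays 1 and 2 but -1.43 and -1.30 on arrays 3 and 4. The third gave 1.47 and 0.94 on arrays 1 and 2. Only the second was lower in MM on all 4 arrays.

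The list of Slit-Robo genes, members included, held genes higher and lower in MM. Of 15 genes, 14 had a probe and 13 were tested, with 5 higher, 5 lower and 3 not called, and 3 higher and 2 lower in both fits. Slit3 was lower by 1 probe (-0.42 ± 0.05, limma adjusted p = 0.00256) and near 0 by the other (0.03 ± 0.10, adjusted p = 0.598). Slit1 averaged -0.22 ± 0.31, called only with the orientation term (adjusted p = 0.0225, and 0.337 without it). The endothelial receptor Robo4 was at -0.06 ± 0.03 and was not called (adjusted p = 0.146). The actin regulators and adaptors that Robo receptors engage were led by Vasp (0.45 ± 0.20) and Nck2 (0.37 ± 0.07, and 1.58 ± 1.29 by another probe) on the higher side and Nck1 (-0.24 ± 0.08) on the lower. Of the GTPase-activating partners, Srgap1 (-0.02 ± 0.74) was not called, and Srgap2 (-0.27 ± 0.13) and Srgap3 (0.21 ± 0.16) were called only with the orientation term. Gpc1, a glypican that binds Slit proteins, gave 1.51, 1.21, -0.03 and -0.01 on arrays 1 to 4 (0.67 ± 0.81, adjusted p = 0.00441, and 0.256 without the orientation term). The Robo partner Enah was called by neither of its probes (-0.06 ± 0.23 and -0.16 ± 0.15).

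Feedback and target genes of Ret signalling also went both ways. Of 16 genes, 10 were tested, with 4 higher, 5 lower and 1 not called, and 3 higher and 2 lower in both fits. A gene was counted by its called probes alone, so Etv5 is among the 4 through its probe AY004174. Dusp6, the phosphatase that ERK signalling induces, was 3.54-fold higher in MM at 1.97, 2.15, 1.48 and 1.69 on arrays 1 to 4 (1.82 ± 0.30, limma adjusted p = 0.000762). The chemokine receptor Cxcr4 lay between 0.76 and 0.80 on the 4 arrays (0.78 ± 0.02, adjusted p = 0.000765), and Spred1 averaged 0.55 ± 0.15 by 1 probe and 0.06 ± 0.85 by the other. Spry1, the Sprouty that restrains Ret in the duct, was lower in MM on all 4 arrays (-0.45 ± 0.10, adjusted p = 0.00277), as was the protease Mmp14 (-0.34 ± 0.02, adjusted p = 0.00278). Wnt11, which marks the bud tip and rises with Ret activity, read 1.64 and 1.02 on arrays 1 and 2 and, like Ret, had no value on arrays 3 and 4. Etv1, the other member of the Etv4 and Etv5 group, read 4.21 and 2.74 on arrays 1 and 2 and -0.08 on array 4.

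Of 26 adaptors and transducers of Ret, 13 were tested, with 6 higher, 5 lower and 2 not called, and 2 higher and 3 lower in both fits. Akt1, a survival kinase, averaged 0.98 ± 0.10 and the ERK-activating kinase Map2k1 0.54 ± 0.28. The lower genes in both fits were the exchange factor Sos1 (-0.49 ± 0.19), the phosphatase Ptpn11 (-0.48 ± 0.11) and the adaptor Grb2 (-0.31 ± 0.11). A second Ptpn11 probe ran the other way where it was measured, at 1.31 and 0.71 on arrays 1 and 2, and had no value on arrays 3 and 4. Of 23 regulators of Gdnf expression, 15 were tested, with 6 higher, 3 lower, 1 of them with values at the floor, and 6 not called. In both fits 4 were higher and 1 lower. Those higher included the nephron progenitor factor Six2 (3.00 ± 0.63), Hoxa11 (1.92 ± 0.59) and the basement membrane protein Frem2 (0.46 ± 0.09), and Wt1 was lower (-1.57 ± 0.02). Of 12 genes of the BMP pathway, which restrains budding, its antagonists included, 8 were tested, with 5 higher, 1 lower and 2 not called. The 5 included the antagonist Grem1 (0.21 ± 0.34), called only with the orientation term. The ligand Bmp4 (-0.11 ± 0.28) was not called. In both fits 2 were higher and 1 lower. These were the receptors Acvr1 (1.89 ± 0.57), Bmpr1a (0.98 ± 0.02, and 0.83 ± 0.30 by another probe) and, lower by the 1 probe tested, Bmpr2 (-0.86 ± 0.25). The other Bmpr2 probe, not tested, gave 0.74 and 0.59 on arrays 1 and 2 and -0.35 on array 4, so the probes differ in sign on arrays 1 and 2. Over the 6 lists, the share of tested genes called with the orientation term was 60% to 90%, beside 61.9% of all tested probes, and in both fits 33.3% to 50%, beside 28%. Genes with several probes had more than 1 chance of a call, and the lists' medians, floor values included, lay between -0.54 and 0.28, beside -0.08 for all tested probes.

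**Figure D3:**
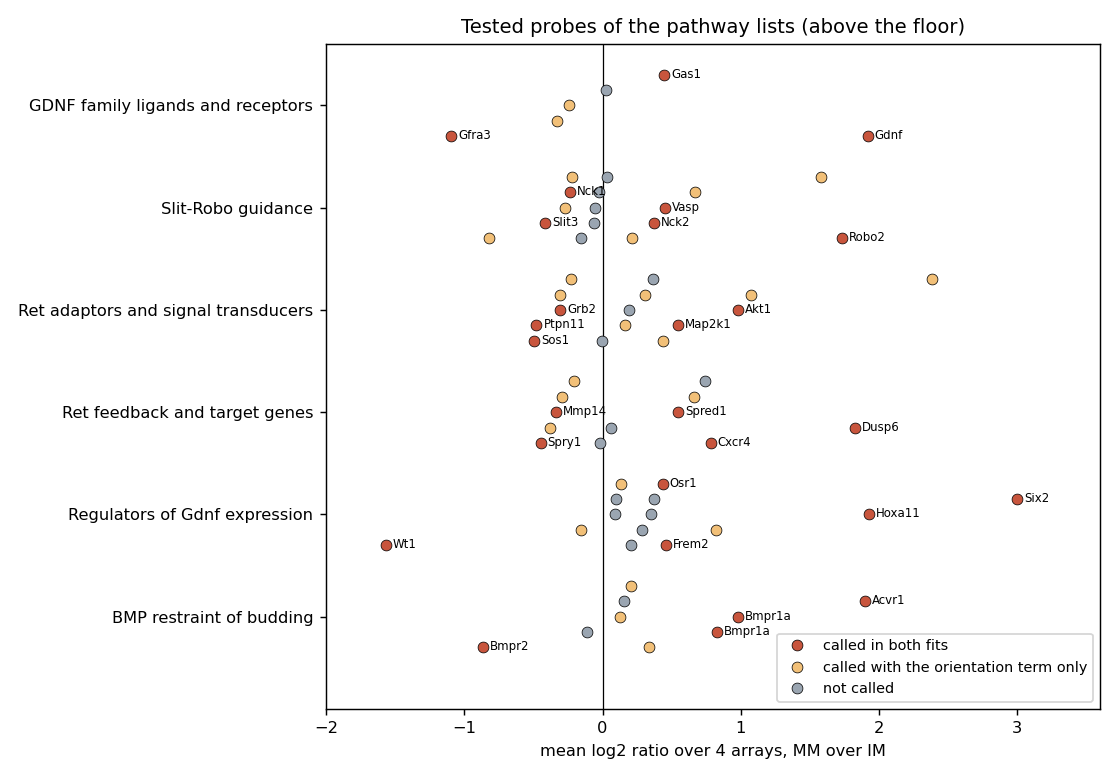
The mean log2 ratio of MM over IM over 4 arrays (horizontal axis) for each tested probe above the floor in the 6 pathway lists (rows; the vertical offset within a row only separates points), coloured by call. Gdnf (1.92), Robo2 (1.73), Dusp6 (1.82), Six2 (3.00), Hoxa11 (1.92) and Acvr1 (1.89) lie farthest to the right among the probes called in both fits, and Wt1 (-1.57) and Gfra3 (-1.10) farthest to the left.

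The tissue labels and the cells that could carry these signals were read from marker lists. The lists share genes and were chosen with earlier results of these data known, so they are no independent check of the labels. Of the genes called, Osr1 (higher) and Wt1 (lower) count for both metanephric mesenchyme and intermediate mesoderm. Meox1 (lower) counts for both metanephric mesenchyme and somite. Cdh16 and Pax8 (lower) count for both intermediate mesoderm and duct. Of 11 tested markers of metanephric mesenchyme, Gdnf among them, 5 were higher and 3 lower in MM, 1 of these 3 with values at the floor (5 and 2 in both fits), and of 8 tested markers of intermediate mesoderm, 1 was higher and 5 lower (1 and 4 in both fits), the latter led by Wnt4 (-1.97 ± 0.22) and Nr5a1 (-1.68 ± 0.22). Ret, Wnt11 and Etv4 are duct genes, and of 10 tested duct and bud markers 5 were higher and 3 lower (3 and 2 in both fits). Calb1, a calcium-binding protein of the duct and other tissues, was at 2.06 ± 0.05 and the epithelial protein Epcam at 1.87 ± 0.06, while Cdh16, kidney cadherin, was at -1.40 ± 0.05 and Gata3, a duct factor, at -0.35 ± 0.04. Limb bud markers, of which 8 were tested, had 4 higher and 2 lower (4 and 1 in both fits), led by Hoxd13 (5.96 ± 1.14) and Tbx5 (1.81 ± 0.94). Neural tube markers had 3 higher and 6 lower of 9 (2 and 4 in both fits), led by Shh (2.81 ± 1.44) and Elavl4 (-0.97 ± 0.40), and somite markers 1 higher and 6 lower of 10, 1 of these 6 with values at the floor (1 and 3 in both fits), led by Myl1 (-2.57 ± 0.26). Over the marker lists, neural crest included, the share of tested genes called with the orientation term was 70% to 100%, beside 61.9% of all tested probes. In both fits it was 20% to 66.7%, beside 28%. The part of duct, limb, neural or somite cells in the ratios of the members was not tested.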

How the data were processed

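The authors deposited a log2 ratio for each probe on each of the 4 arrays. They, per the labels' protocols, quantified spots with Imagene 5.5, reversed signal and control on arrays 3 and 4 for the dye swap, applied a lowess fit (window of 20.0% of the data) to adjust the control value, and set control values under 10 to 10. The sources used here give no background correction, flags or filters. Base 2 was inferred from the values: raised from base 2, 98.9% to 100% of ratios under 1 fell on thousandths (tolerance 0.01 thousandths). No intensities are in the table, and precision is limited by the number of arrays.

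Probes with 4 values were fitted with limma 3.58.1 (R 4.3.3): an intercept for tissue, plus channel orientation, with Benjamini-Hochberg adjustment over 14184 probes. The residual of that fit comes from pairs of arrays of 1 orientation, so the fit without the orientation term stands beside it. The labels do not say that arrays hold separate extracts, so p-values reflect variation among these 4 arrays alone, possibly technical. The fit was tested on simulated data with independent errors on each array, which cannot show whether arrays share extracts. The lists, members and alternatives were chosen with earlier results of these data known. All member probes were named. From other lists, up to 3 genes per direction were named, those called in both fits with the largest mean and no floor value, and all GDNF family and Slit-Robo genes with a probe. Etv1, Wnt11, Sox10, Tfap2a, Grem1, Bmp4, Pax8 and the second probes were named outside that rule, after their values were seen. Gene names came from the platform annotation (17252 probes with 1 symbol, 156 with several, 5294 with none), and promoters from RefSeq, GRCm38.p6. Alternatives changed the orientation term, floor values, centring, scaling, array weights, the number of values needed, and the arrays used.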

Additional observations from a re-analysis of the deposited data

Results flagged for a closer look

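The difference between orientations of opposite sign was past the threshold for 2 member probes. Gfra1 differed by 9.13 on the log2 scale between arrays 1 and 2 and arrays 3 and 4 (limma adjusted p = 0.00824), a gap that holds the floor and is no measured size. The Etv5 probe AY004174 differed by 1.65 (adjusted p = 0.00217), with all 4 values measured. Among the other named genes, Hoxd13 on array 2 stood apart from the other 3 arrays at 7.67. It was the only value so marked. The screen covered the member probes above the floor and the tested probes of the other genes named by the rule. Chance alone marks about 1 in 20 groups, and many probes were screened.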

How the results depend on the processing

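Gdnf, Robo2 and Gfra3 kept their direction and their call under 12 of 13 alternatives, with log2 ratios of 1.86 to 1.98, 1.65 to 1.81 and -1.13 to -1.07 when each array was left out. The exception, for these and for every other call, was averaging each orientation to 1 value. That fit takes its error from the difference between orientations, with 1 residual degree of freedom. In limma 0 of 14184 probes, 0 members and 0 list genes were then called, and 1526 probes had an unadjusted p under 0.05. Gdnf (1.92), Robo2 (1.73) and Gfra3 (-1.10) all had a limma adjusted p of 0.461. Under that average Slit2 (-0.82) had 0.558, the Etv5 probe AY004174 (0.66) 0.728 and Gfra1 (-2.08) 0.843. Without the orientation term, calls fell from 8779 to 3968 over all probes, from 6 to 3 over the members and from 87 to 50 over the listed genes. Slit2 (-0.82), the Etv5 probe AY004174 (0.66) and Gfra1 (-2.08) lost theirs. Leaving out each array gave 5808 to 6782 calls, the lowest without array 3 and then array 4 (5848), with 6 member calls each time and 63 to 73 listed genes. Then Slit2 ranged from -0.84 to -0.81, the Etv5 probe AY004174 from 0.63 to 0.69, Etv4 from 0.44 to 1.04 and the Etv5 probe AK003461 from -0.0447 to 0.0048. Gfra1 ranged from -2.55 to -1.60 and lost its call without array 3 or array 4. On arrays 1 and 2 alone there were 5614 calls and Gfra1 turned to 2.48. Arrays 3 and 4 alone gave 7701 calls. These fits also have 1 residual degree of freedom, with the error taken within 1 orientation. On arrays 3 and 4 alone the Etv5 probe AY004174 turned to -0.16 (limma adjusted p = 0.0325) and the Etv5 probe AK003461 to 0.0682. The latter also changed sign with arrays centred (0.0201), with arrays scaled (0.0144) and without array 4 (0.0048). Except where the construction shows it, the cause was not tested. Each value is already a ratio of the tissues within 1 array, so the fits are paired by array. No paired analysis was possible because, beyond that, there is 1 group of arrays and no second group that shares replicate numbers with it.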
